A study of Mus musculus with 1376 samples.

Results

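The genes Rbp4, Stra6, Adh1, Adh7, Rdh10, Aldh1a1, Aldh1a2, Aldh1a3 and Cyp26b1 encode proteins that carry, take up, oxidise and break down retinoids, and they are 9 of the 46517 genes in the count table of this mouse lung series. They were picked by name from their levels across vascular muscle and fibroblast cells of these same animals, so those levels are given as a description without a test. The table holds read counts of 1376 single cells from 3 mice of the strain ACTA2GFP:CSPG4dsRED, which carries reporters for the smooth muscle gene Acta2 and the mural cell gene Cspg4. Cells were sorted one by one into 384-well plates and sequenced with Smart-Seq2, a full-length method without molecular identifiers. The cells filled 4 plates, of which 2 held male mouse 1 (47.5% of cells), and the others held male mouse 2 (25.6%) or female mouse 1 (26.96%). No mouse was treated, all carry both reporters, and the labels give an age of 8 to 30 weeks without saying which mouse had which age, while the series text gives 8 to 21 weeks. The series text speaks of male mice although 1 source label is female, and the extraction text names heart and a skeletal muscle kit although the tissue label is lung. For male mouse 2 and female mouse 1 the animal, its plate and its sex cannot be told apart, and no source used here states the sort gate.

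Cells held 50835 to 1074103 counts, with a median of 230688, and 0 cells shared all their counts with another cell. Cells were clustered on 1000 variable genes that included 0 of the retinoid genes, and clusters were named from marker lists; the scoring rule for names was chosen with the clusters in view. Adventitial fibroblast-like cells made up 4.94% of all cells (68 cells), alveolar fibroblast-like 11.9%, alveolar myofibroblast-like 6.61% (91 cells), airway smooth muscle cell (SMC)-like 6.98% (96 cells), pericyte-like 7.63% and vascular SMC-like 44.04%, each with at least 10 cells per mouse. Of 67 endothelial-like cells 66 came from the female mouse, of 66 macrophage-like cells 60 came from male mouse 1, and 8.21% of all cells were left unnamed. No doublet caller was run; 91 cells held at least 3 markers of another type at 20 CPM or more. The alveolar fibroblast-like cluster was led by Col28a1 and Slc36a2, and its leading genes included the mesothelial marker Upk1b beside the fibroblast marker Wnt2. The vascular SMC-like class joined 3 clusters. Their leading genes were Stac and Grip2 (51.98% of the class), Osr2 (27.7%), and Efhd1, Uchl1 and Sfrp2 (20.3%). The Osr2 cluster was called vascular SMC-like in 2 of 7 clusterings, so levels that rest on it are also given without it.

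Vitamin A circulates as retinol bound to the carrier RBP4, and cells that need it can import it through the membrane receptor STRA6. Inside the cell alcohol and retinol dehydrogenases turn retinol into retinaldehyde, and the retinaldehyde dehydrogenases of the ALDH1A family turn that irreversibly into retinoic acid, the ligand of the nuclear retinoic acid receptors. CYP26 enzymes clear retinoic acid, and LRAT stores retinol as esters. In lung, retinoic acid is known for its part in alveolar formation, and lipid-laden interstitial fibroblasts are known to store retinyl esters.

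The start regions of Aldh1a1, Aldh1a2, Adh1, Adh7 and Rbp4, the 5 genes on which most of the class differences below turn, are shown so that the sequence before each start can be compared. RefSeq start regions on GRCm38.p6 were found for 7 of the 9 genes (not Aldh1a3 and Rdh10), and each line below gives the 250 bases before the start that lies nearest to a start codon, 5′ to 3′ on the gene's strand, with matches to the searched motifs in capitals. The regions are Aldh1a1 at chr19:20601718-20601967 on the plus strand, Aldh1a2 at chr9:71215539-71215788 on the plus strand, Adh1 at chr3:138277335-138277584 on the plus strand, Adh7 at chr3:138217523-138217772 on the plus strand and Rbp4 at chr19:38124812-38125061 on the minus strand.
Aldh1a1: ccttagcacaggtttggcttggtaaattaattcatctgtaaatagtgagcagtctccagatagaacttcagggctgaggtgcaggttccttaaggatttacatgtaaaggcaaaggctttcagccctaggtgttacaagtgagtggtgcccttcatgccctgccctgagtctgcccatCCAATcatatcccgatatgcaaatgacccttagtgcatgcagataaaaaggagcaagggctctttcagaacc
Aldh1a2: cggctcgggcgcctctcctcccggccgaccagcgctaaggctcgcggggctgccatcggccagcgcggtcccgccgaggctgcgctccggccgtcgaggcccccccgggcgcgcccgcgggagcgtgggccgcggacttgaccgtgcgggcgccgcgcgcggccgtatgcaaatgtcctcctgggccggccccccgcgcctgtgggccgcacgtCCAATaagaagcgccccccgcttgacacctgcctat
Adh1: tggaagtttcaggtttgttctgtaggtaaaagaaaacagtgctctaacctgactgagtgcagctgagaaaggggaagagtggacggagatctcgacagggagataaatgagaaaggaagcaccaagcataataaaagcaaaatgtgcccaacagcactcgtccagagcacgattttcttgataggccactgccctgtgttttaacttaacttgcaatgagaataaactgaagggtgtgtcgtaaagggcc
Adh7: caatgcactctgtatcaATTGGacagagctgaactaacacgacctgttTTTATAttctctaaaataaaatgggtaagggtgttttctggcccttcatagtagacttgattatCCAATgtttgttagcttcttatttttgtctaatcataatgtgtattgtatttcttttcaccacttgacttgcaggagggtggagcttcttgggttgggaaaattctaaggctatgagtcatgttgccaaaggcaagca
Rbp4: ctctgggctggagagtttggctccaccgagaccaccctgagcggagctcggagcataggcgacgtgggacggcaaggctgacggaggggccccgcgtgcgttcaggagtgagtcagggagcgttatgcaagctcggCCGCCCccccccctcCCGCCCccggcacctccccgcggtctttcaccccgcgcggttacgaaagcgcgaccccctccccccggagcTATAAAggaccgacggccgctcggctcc

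Letters were searched on both strands for AGGTCA, the retinoid receptor half-site, for 2 copies of it in the same direction with 5 bases between them (which also hold the single site), for the TATA box letters TATAAA, for the CCAAT box, for the letters GGGCGG of the GC box, and for the CArG box of the muscle factor SRF by name. Among all 32851 RefSeq start regions of the same length, 14.02% hold AGGTCA, 0.00913% hold the direct repeat, 12.4% hold TATAAA, 33.8% hold CCAAT, 32.7% hold GGGCGG and 1.47% hold a CArG box. The Aldh1a1 region holds CCAAT 72 bases before the start, and the Aldh1a2 region holds CCAAT 36 bases before it. Adh7 holds CCAAT at 2 places and TATAAA on the minus strand, Rbp4 holds TATAAA at 28 bases before its start and GGGCGG at 2 places on the minus strand, and the Adh1 window has none of these letters. Base composition set Aldh1a2 and Rbp4 apart from the rest of the set, with 77.6% and 70.8% G or C and 40 and 28 CG pairs, against 46.4% and 1 pair in Aldh1a1, 44.8% and 5 pairs in Adh1 and 38% and 1 pair in Adh7. The medians over all start regions are 52.4% and 6 pairs. A match is only a match of letters, and none of the files measures binding.

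In the 6 mural and fibroblast classes the genes fell into separate patterns. Adh1 and Aldh1a1 were high in both fibroblast classes, Adh7 and Rbp4 were highest in adventitial fibroblast-like cells, Aldh1a2 was highest on average in vascular SMC-like cells, Rdh10 was highest in airway SMC-like cells, and Stra6, Aldh1a3 and Cyp26b1 were low nearly everywhere. All levels below are counts per 1000000 counts (CPM), summed over the cells of a class within a mouse and scaled by TMM. Where 3 values are listed, male mouse 1 comes first, male mouse 2 next and female mouse 1 last.

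**Figure D1:**
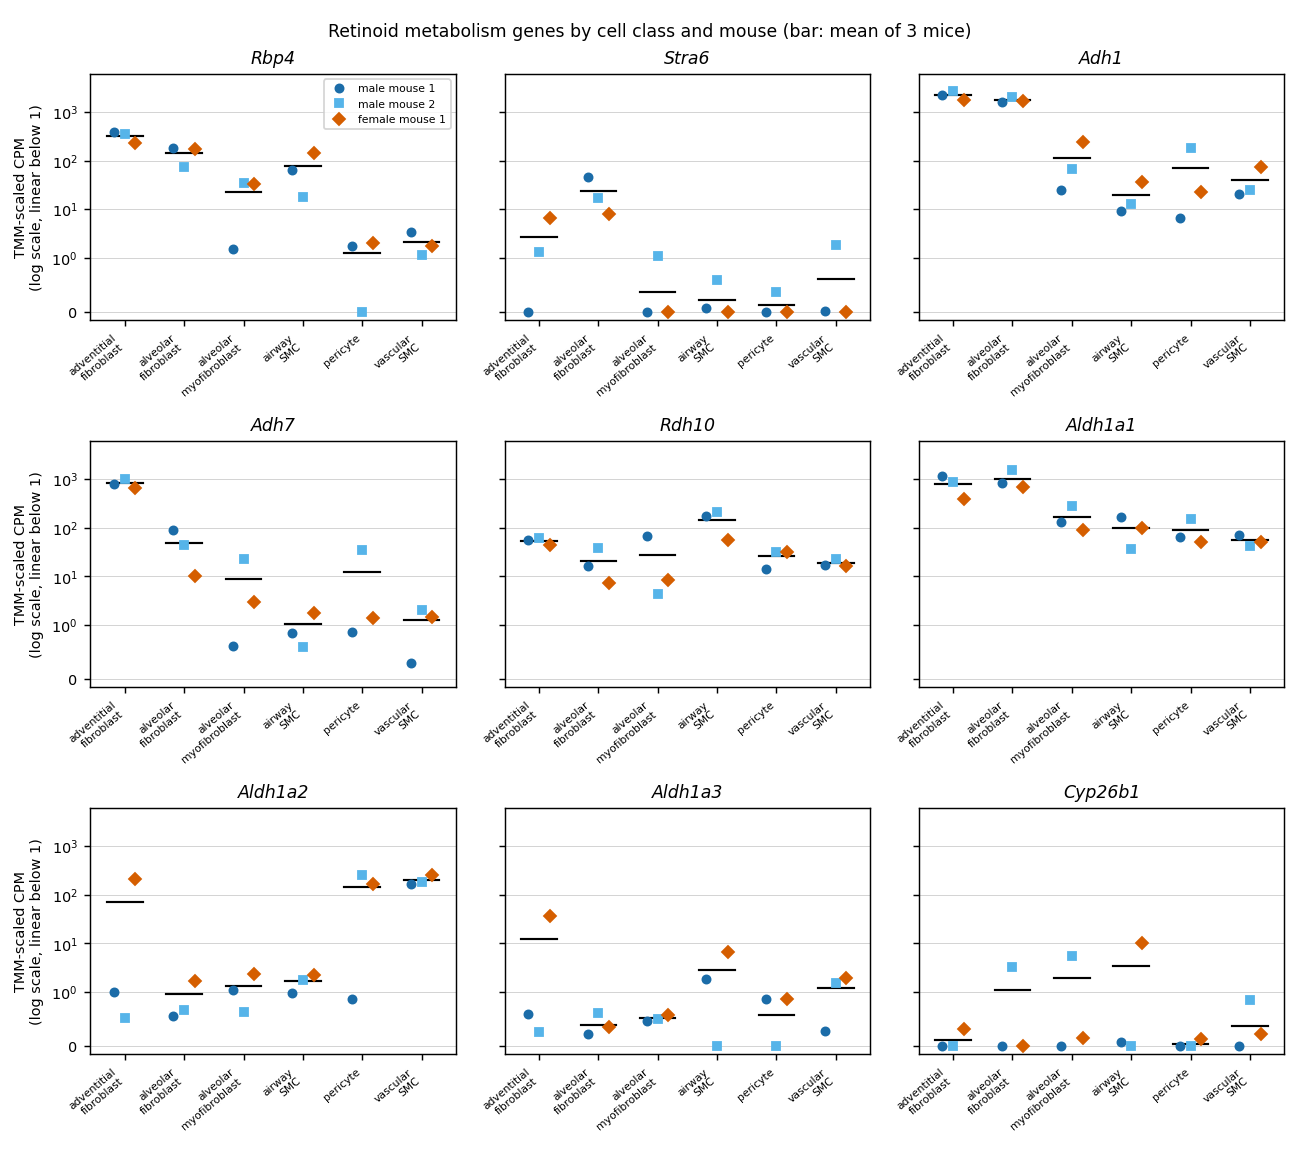
Each panel plots 1 gene's TMM-scaled CPM (log axis, linear below 1) in 6 cell classes (all "-like" classes named from markers). Points are mice and bars are means of 3 mice. Adh1 averages 2237 CPM in adventitial and 1754 CPM in alveolar fibroblast-like cells against 39.5 CPM in vascular SMC-like cells, while Aldh1a2 averages 0.961 CPM in alveolar fibroblast-like and 200.4 CPM in vascular SMC-like cells.

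Rbp4, the plasma retinol carrier (chr19:38116629-38125281, minus strand, GRCm38), had 379.9 CPM, 345.5 CPM and 232.3 CPM in adventitial fibroblast-like cells of the 3 mice. Alveolar fibroblast-like cells had 181.9 CPM, 73.9 CPM and 176.1 CPM of Rbp4, and alveolar myofibroblast-like cells had 1.53 CPM, 33.8 CPM and 33.2 CPM. All 3 adventitial values of Rbp4 lay above all other values of the gene, and the next classes in order (alveolar fibroblast-like, airway SMC-like, alveolar myofibroblast-like) overlapped with their neighbours. Among adventitial fibroblast-like cells of a finer clustering, female cells led by Scara5 had less Rbp4 than those led by Bmp7 and Dner, as given below. Vascular SMC-like and pericyte-like cells were lowest for Rbp4, at 2.08 ± 1.14 CPM and 1.25 ± 1.09 CPM (SD, n = 3 mice). A count of Rbp4 was found in 77.9% of adventitial and 51.2% of alveolar fibroblast-like cells, and in 72.1% and 37.2% once each cell was thinned to 50000 counts, against 13.6% and 3.03% of macrophage-like cells before and after thinning. Median depth was 317607 counts per adventitial, 300248 per alveolar fibroblast-like and 241016 per macrophage-like cell. The vascular SMC-like share of 16.8%, or 5.45% after thinning, stood close to that of the macrophage-like cells.

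Stra6, the retinol import receptor for RBP4 (chr9:58063788-58153996, plus strand), was highest in alveolar fibroblast-like cells, with 45.6 CPM, 17.1 CPM and 8.07 CPM. The next highest class was adventitial fibroblast-like at 2.66 ± 3.54 CPM (SD, n = 3), and its highest mouse lay below the lowest alveolar fibroblast-like mouse. Each of the other 4 classes averaged under 1 CPM. Stra6 was carried by few cells, since 12.8% of alveolar fibroblast-like cells had a count and 7 cells reached 20 CPM. After thinning the share with a count was 4.88%, against 4.55% of macrophage-like cells and 0 of 67 endothelial-like cells, which allows a share of up to 4.48%. At 20 CPM or more were 0 of 66 macrophage-like cells, which allows a share of up to 4.55%. A level of 20 CPM corresponds to 1 read in a cell of 50000 counts and is used below as the mark of a cell with the transcript.

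Adh1, an alcohol dehydrogenase that oxidises retinol (chr3:138260991-138290698, plus strand), had the highest level of the set. Adventitial fibroblast-like cells had 2239 CPM, 2694 CPM and 1776 CPM, and alveolar fibroblast-like cells had 1600.2 CPM, 2007 CPM and 1655 CPM. Myofibroblast-like cells had 24.7 CPM, 68.5 CPM and 245.6 CPM, so both fibroblast classes stood clear of every other class while overlapping with each other. At or above 20 CPM of Adh1 were 98.8% of alveolar and 97.1% of adventitial fibroblast-like cells. Vascular SMC-like cells had 20.9 CPM, 24.4 CPM and 73.1 CPM of Adh1, a range that overlapped with airway SMC-like cells at 19.6 ± 15.1 CPM and pericyte-like cells at 70.7 ± 97.4 CPM (SD, n = 3). Counts of Adh1 turned up in 58.7% of vascular SMC-like cells and 57.6% of macrophage-like cells, and after thinning in 25.2% and 31.8%. The class share was thus no higher than that of macrophage-like cells, of which 13.6% were at or above 20 CPM. Within the class the thinned share was 46.4% in the Osr2 cluster, 16.2% in the Stac and Grip2 cluster and 19.5% in the Efhd1 and Sfrp2 cluster. The gene overlaps the antisense gene Gm16559, no source used here says whether reads were counted by strand, and reads of the pair cannot be told apart.

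Adh7, a retinol-oxidising alcohol dehydrogenase encoded next to Adh1 (chr3:138217760-138233382, plus strand), differed between the 2 fibroblast classes that share high Adh1. Adventitial fibroblast-like cells had 789.9 CPM, 1000.5 CPM and 637.5 CPM of Adh7, whereas alveolar fibroblast-like cells had 90.2 CPM, 43.8 CPM and 10.1 CPM. The adventitial values did not overlap with any other class. In the finer clustering, female adventitial fibroblast-like cells led by Scara5 had less Adh7 than those led by Bmp7 and Dner, as given below. Without cells holding markers of another type, 13 of 59 in that mouse, the unscaled alveolar fibroblast-like level of male mouse 1 was 31.9 CPM in place of 96.6 CPM. Of the 68 adventitial cells 48 were at or above 20 CPM, and all 48 were also at or above 20 CPM for Adh1. Adh7 averaged 1.27 ± 0.88 CPM in vascular SMC-like cells (SD, n = 3), where 2.64% of thinned cells had a count.

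Rdh10, the retinol dehydrogenase of embryonic retinoic acid synthesis (chr1:16105774-16133734, plus strand), was led by airway SMC-like cells with 169.2 CPM, 213.9 CPM and 55.3 CPM. Adventitial fibroblast-like cells followed with 53.2 ± 9.25 CPM, and the remaining 4 classes averaged 18.7 to 26.9 CPM with overlapping ranges. Rdh10 in vascular SMC-like cells was even across mice, at 17.4 CPM, 22.6 CPM and 16.01 CPM. The transcript came from few cells in each class: 27.1% of airway SMC-like and 7.43% of vascular SMC-like cells were at or above 20 CPM.

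Aldh1a1, a retinaldehyde dehydrogenase (chr19:20492715-20643465, plus strand), had 1153 CPM, 873 CPM and 388.9 CPM in adventitial and 833 CPM, 1491 CPM and 689 CPM in alveolar fibroblast-like cells. Alveolar myofibroblast-like cells had 129.03 CPM, 276.5 CPM and 88.8 CPM, so each mouse held less Aldh1a1 there than in either fibroblast class, and the ranges did not overlap. Airway SMC-like, pericyte-like and vascular SMC-like cells overlapped with each other at 99.7 ± 65.6 CPM, 87.3 ± 52.6 CPM and 54.3 ± 15.4 CPM (SD, n = 3). On the scale of log2(CPM + 1), alveolar fibroblast-like minus vascular SMC-like cells gave a mean difference of 4.14 ± 0.88 over the 3 mice for Aldh1a1, and 5.66 ± 1.02 for Adh1. At or above 20 CPM were 89.02% of alveolar fibroblast-like and 12.9% of vascular SMC-like cells. Reads of Aldh1a1 could be shared with its close paralog Aldh1a7, which averaged 5.24 ± 5.53 CPM in vascular SMC-like cells and under 1 CPM in the other 5 classes.

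Aldh1a2, the main retinaldehyde dehydrogenase of the embryo (chr9:71215789-71296243, plus strand), ran opposite to Aldh1a1 between alveolar fibroblast-like and vascular SMC-like cells, though not over all classes. Alveolar fibroblast-like cells had 0.559 CPM, 0.669 CPM and 1.66 CPM, against 165.8 CPM, 179.8 CPM and 255.6 CPM in vascular SMC-like cells. The groups did not overlap, and in each mouse the log2(CPM + 1) difference lay between -6.76 and -6.59. Alveolar myofibroblast-like cells at 1.33 ± 0.86 CPM and airway SMC-like cells at 1.66 ± 0.64 CPM (SD, n = 3) were as low as the alveolar fibroblast-like cells. Of vascular SMC-like cells 28.2% reached 20 CPM of Aldh1a2, while 0 alveolar fibroblast-like and 0 alveolar myofibroblast-like cells did, which allows shares of up to 1.83% and 3.30% for counting error only. A count of Aldh1a2 was found in 48.3% of vascular SMC-like, 23.2% of alveolar fibroblast-like and 1.52% of macrophage-like cells, and after thinning in 33.3%, 6.10% and 1.52%. At a finer clustering (Leiden resolution 2) the alveolar fibroblast-like level of Aldh1a2 was 21.7 CPM; the cause was not tested.

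Pericyte-like and adventitial fibroblast-like cells were uneven between mice for Aldh1a2. Pericyte-like cells had 0.876 CPM, 254.3 CPM and 165.2 CPM, and adventitial fibroblast-like cells had 0.992 CPM, 0.524 CPM and 210.4 CPM. The pericyte-like class joined 2 clusters, led by Col8a1 (pericyte score 1.33) and by 9230104L09Rik and Clstn2 (score 1.82). Unscaled Aldh1a2 was 0.546 CPM, 685.0 CPM and 231.9 CPM in the Col8a1 cluster (12, 5 and 44 cells). In the Clstn2 cluster it was 1.55 CPM, 0 CPM and 4.57 CPM (6, 8 and 30 cells). In the pericyte-like class of male mouse 2, 2 of 13 cells held at least 3 mesothelial markers at 20 CPM or more, and these cells had 1912 CPM and 2359 CPM of Aldh1a2, together with 820.3 CPM and 791 CPM of Cyp2s1. Without cells that held markers of another type, the unscaled Aldh1a2 level of male mouse 2 was 0.459 CPM in place of 278.5 CPM, while the female mouse kept 162.9 CPM. That selection of cells was chosen after seeing the data. Among adventitial fibroblast-like cells the finer clustering set 18 cells led by Scara5 and Slc1a7, 15 of them female, apart from 51 cells led by Bmp7 and Dner. These clusters were formed anew and do not hold exactly the 68 cells of the class above. The 15 female cells had 518.4 CPM of Aldh1a2 and 85.6 CPM of Aldh1a3, and the Bmp7 and Dner cells of the 3 mice had 1.04 CPM, 0.562 CPM and 1.44 CPM of Aldh1a2. Adh7 and Rbp4 went the other way between them, at 98.1 CPM and 28.3 CPM in the 15 Scara5 cells, against 890.4 CPM and 329.1 CPM in the Bmp7 and Dner cells of the same mouse. The high adventitial level of both genes in that mouse thus lay in the Bmp7 and Dner cells. For adventitial fibroblast markers the Scara5 cluster scored 2.15 with 9 markers detected, and the Bmp7 and Dner cluster scored 1.16 with 6.

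Aldh1a3, a further retinaldehyde dehydrogenase (chr7:66390890-66427517, minus strand), reached 35.9 CPM in adventitial fibroblast-like cells of the female mouse, against 0.595 CPM and 0.262 CPM in those of the males. It averaged under 3 CPM in the other 5 classes, and 13 of all 1376 cells reached 20 CPM. Cyp26b1, which degrades retinoic acid (chr6:84571414-84593908, minus strand), averaged at most 3.35 CPM in the 6 classes, and its largest class value of 9.97 CPM in female airway SMC-like cells came from 1 cell at or above 20 CPM. It had its highest level outside these classes, at an unscaled 107.3 CPM in endothelial-like cells of the female mouse. A count was found in 29 of 67 endothelial-like cells, 43.3% before and 34.3% after thinning, against 0 of 66 macrophage-like cells, which allows a share of up to 4.55%; median depth was 150503 counts per endothelial-like cell.

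Per kilobase of exon, which allows genes to be set beside each other, alveolar fibroblast-like cells held 786 CPM per kb of Adh1, 203.5 of Aldh1a1, 107.2 of Rbp4, 12.7 of Adh7, 4.94 of Rdh10 and 4.05 of Stra6. In adventitial fibroblast-like cells Adh1 led in all 3 mice, at a mean of 1002 CPM per kb, and the means of Rbp4 at 237.7, Adh7 at 213.7 and Aldh1a1 at 163.01 changed order between mice. Vascular SMC-like cells were led by Aldh1a2 in all 3 mice, at a mean of 88.5 CPM per kb. Adh1 at 17.7 and Aldh1a1 at 11 CPM per kb came next, and their order turned in male mouse 1, with 9.34 of Adh1 and 14.4 of Aldh1a1. In airway SMC-like cells Rbp4 averaged 56.3 CPM per kb and Rdh10 35.1, but in male mouse 2 Rbp4 was at 13.5 and Rdh10 at 51.4.

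Within the vascular SMC-like class Aldh1a1 and Adh1 belonged to the Osr2 cluster, whose class name changed with the clustering. Unscaled CPM of Aldh1a1 there was 245.5 CPM, 178.7 CPM and 111.7 CPM, against 14.5 CPM, 3.40 CPM and 13.9 CPM in the Stac and Grip2 cluster and 15.6 CPM, 1.86 CPM and 0.994 CPM in the Efhd1 and Sfrp2 cluster. All 3 mice had their highest Aldh1a1 and Adh1 in the cells of the Osr2 cluster, where Adh1 was at 75.6 CPM, 96.9 CPM and 172.7 CPM, against 3.096 to 8.53 CPM in the Stac and Grip2 cells and 2.34 to 10.6 CPM in the Efhd1 and Sfrp2 cells. Without the Osr2 cluster the vascular SMC-like means, unscaled, were 9.64 ± 6.20 CPM in place of 57.3 ± 20.1 CPM for Aldh1a1 and 5.30 ± 3.21 CPM in place of 40.9 ± 30.02 CPM for Adh1 (SD, n = 3). The Aldh1a2 mean was 224.6 ± 70.3 CPM without that cluster and 208.3 ± 48.7 CPM with it.

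**Figure D2:**
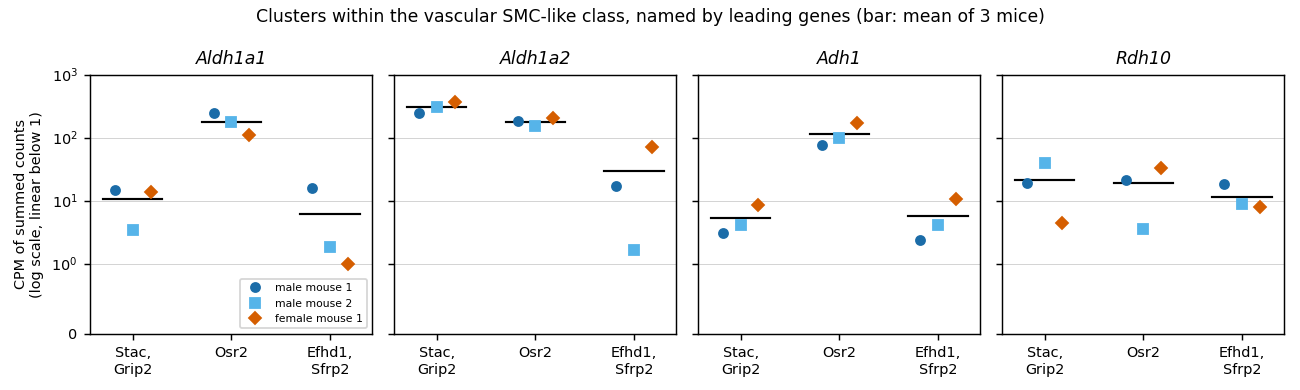
Unscaled CPM (log axis, linear below 1) of Aldh1a1, Aldh1a2, Adh1 and Rdh10 in the 3 clusters of the vascular SMC-like class, named by leading genes. Points are mice and bars are means of 3 mice. Aldh1a1 and Adh1 are highest in all 3 mice in the Osr2 cluster, and Aldh1a2 is lowest in all 3 mice in the Efhd1 and Sfrp2 cluster.

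Aldh1a2 divided the class differently. The Stac and Grip2 cluster had 242.7 CPM, 302.8 CPM and 364.7 CPM, the Osr2 cluster had 180.6 CPM, 154.6 CPM and 203.6 CPM, and the Efhd1 and Sfrp2 cluster had 17.1 CPM, 1.64 CPM and 70.2 CPM. The female value of the last cluster came from 11 cells. In each mouse the order was Stac and Grip2 first, Osr2 second and Efhd1 and Sfrp2 last. At or above 20 CPM of Aldh1a2 were 41.9%, 20.8% and 3.25% of the cells of these clusters. Rdh10 did not follow the clusters, and its values in the 3 clusters ran from 3.58 to 39.4 CPM with overlapping ranges.

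Few cells held both dehydrogenases, and whether the 2 avoid each other was not tested. Of the 78 vascular SMC-like cells with Aldh1a1, 17 also had Aldh1a2, where 28.2% of the class had it. In the Osr2 cluster this was 9 of 60, where 20.8% of the cluster had it, and in the Stac and Grip2 cluster 7 of 14, where 41.9% had it. Of the vascular SMC-like cells 2.81% were at or above 20 CPM for Aldh1a1 and Aldh1a2, 10.07% for Aldh1a1 only, 25.4% for Aldh1a2 only and 61.7% for neither. In the Osr2 cluster these shares were 5.36% for both, 30.4% for Aldh1a1 only and 15.5% for Aldh1a2 only, and in the Stac and Grip2 cluster 2.22%, 2.22% and 39.7%. Alveolar fibroblast-like cells had Aldh1a1 without Aldh1a2 in 89.02% of cells and Aldh1a2 in 0 cells. Across the vascular SMC-like cells the Pearson correlation of the log2 CPM values was -0.0031 (sparse counts of cells from 3 mice, given as a description).

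**Figure D3:**
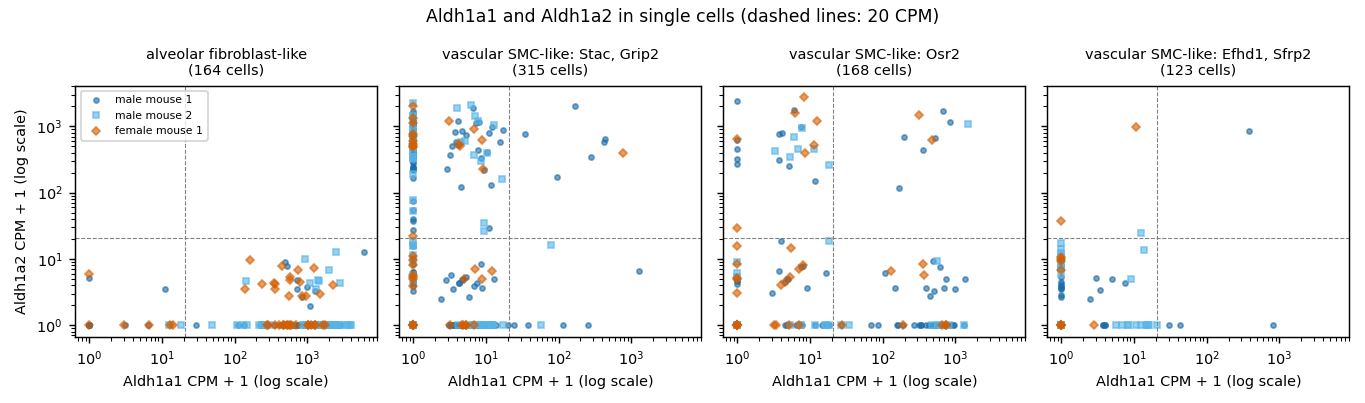
Each point is 1 cell, with Aldh1a1 CPM + 1 on the x axis and Aldh1a2 CPM + 1 on the y axis (both log scales), for alveolar fibroblast-like cells and the 3 clusters of vascular SMC-like cells, coloured by mouse. Dashed lines mark 20 CPM. The alveolar fibroblast-like cells lie along the bottom, with 0 above the Aldh1a2 line, and cells above it are most frequent in the Stac and Grip2 cluster (41.9%).

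Airway and vascular smooth muscle are set side by side as a description. The vascular values are among those the genes were chosen from, so fitted log2 fold changes are given with their standard errors and without p values. Rbp4 was at 64.6 CPM, 18.1 CPM and 144.04 CPM in airway SMC-like cells, against 3.34 CPM, 1.14 CPM and 1.75 CPM in vascular SMC-like cells. All airway values lay above all vascular ones, and edgeR's quasi-likelihood fit with mouse as a block gave a log2 fold change of 4.99 ± 1.06 (SE). Of the 62 airway counts of Rbp4 in male mouse 2, 1 cell held 88.7%. The airway class held 26.04% of cells at or above 20 CPM of Rbp4, against 0.990% in the vascular class. The airway name itself depended on the clustering, since at Leiden resolution 2 a cluster of 81 of the 96 airway SMC-like cells scored 1.23 for alveolar myofibroblast and 1.17 for airway SMC markers and stayed unnamed.

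Rdh10 had a log2 fold change of 2.796 ± 0.88 (SE), and all 3 airway values lay above all 3 vascular ones. Aldh1a2 had 0.981 CPM, 1.76 CPM and 2.25 CPM in airway SMC-like cells, against 165.8 CPM to 255.6 CPM in vascular SMC-like cells, without overlap, at a log2 fold change of -7.10 ± 1.84. Aldh1a1 was at 0.90 ± 0.52, and at 3.36 once the Osr2 cluster was left out of the vascular class, an alternative chosen after seeing the data. Adh1 was at -1.03 with that cluster and turned to 1.86 without it, to 2.28 under another random gene split and to 2.30 when all variable genes outside the retinoid lists were used to cluster. Adh7, Stra6, Aldh1a3 and Cyp26b1 reached 20 CPM in at most 2 airway SMC-like cells each, and Cyp26b1 had the highest fold change of the 4 at 3.82. The 9 airway SMC markers summed to 17809 to 24446 CPM in airway SMC-like cells and 15347 to 22734 CPM in vascular SMC-like cells, and 3 of the 9 stand on the vascular list too; the part of this overlap in the results was not tested.

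**Figure D4:**
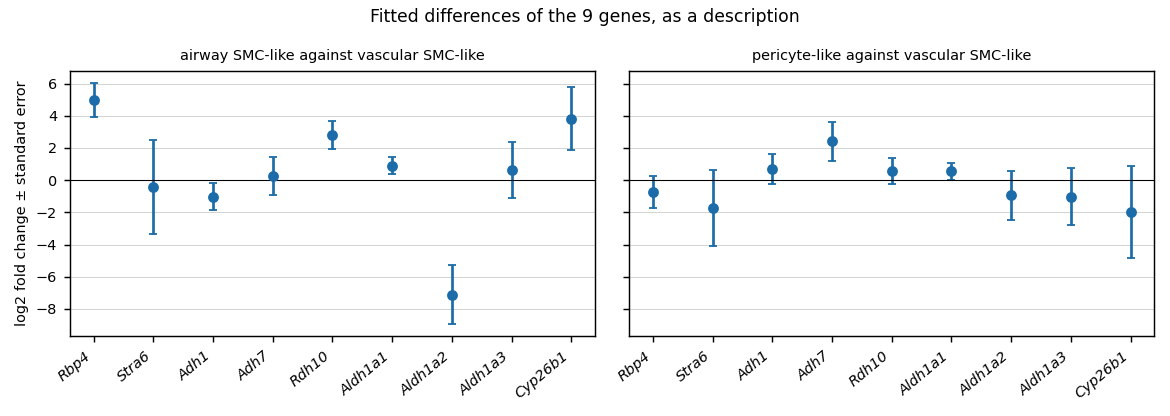
Fitted log2 fold changes of the 9 genes, with standard errors, for airway SMC-like (left) and pericyte-like (right) against vascular SMC-like cells, from 3 mice per class. Points are fitted values, bars are standard errors, and in the airway comparison Rbp4 is at 4.99 ± 1.06 and Aldh1a2 at -7.10 ± 1.84. No test is shown. Stra6, Aldh1a3 and Cyp26b1 rest on few counts.

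Pericyte-like against vascular SMC-like cells are described in the same way. Aldh1a2 had a log2 fold change of -0.95 ± 1.52 (SE), with the mice and the pericyte-like clusters as uneven as given above, and of -4.76 without cells holding markers of another type. Aldh1a1 was at 0.56 ± 0.53, and at 3.07 without the Osr2 cluster. Rdh10 was at 0.58 ± 0.83, Rbp4 at -0.73 ± 0.98, and Stra6, Aldh1a3 and Cyp26b1 between -1.98 and -1.03. Adh1 and Adh7 in pericyte-like cells were highest in male mouse 2, at 182.8 CPM and 35.04 CPM, the mouse whose class held the cells with mesothelial markers, and in those cells Adh1 was at 1362 CPM and 138.04 CPM. Without cells holding markers of another type, unscaled Adh1 in that class and mouse was 58.8 CPM in place of 200.2 CPM, and Adh7 was 0 CPM in place of 38.4 CPM.

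The other genes of the pathway were taken from 6 lists of carriers, ester enzymes, oxidoreductases, hydroxylases, receptors and retinoic acid targets, 63 genes in all, of which 39 had enough counts to be tested. These lists were also chosen with earlier results of these data known. The p values and shares of calls here and in the following paragraphs do not account for that choice. In alveolar fibroblast-like against vascular SMC-like cells 3 of 39 passed, all of them higher, or 7.69%, where 5.43% of all genes passed (3.13% higher, 2.30% lower). By list these were 2 of 4 tested ester enzymes and 1 of 7 target genes, and the 4 carriers, 11 oxidoreductases and 1 hydroxylase gave no call. These were Lrat, the enzyme that esterifies retinol, the lipase Lpl and the homeobox gene Hoxa5, a retinoic acid target. The median log2 fold change was -0.10 over the 39 genes and -0.08 over all genes. Lrat had 297.7 CPM, 525.9 CPM and 295.02 CPM in alveolar fibroblast-like cells, against 0.417 CPM, 0.853 CPM and 1.41 CPM in vascular SMC-like cells (8.80 ± 0.81 on the log2 scale, SE; edgeR adjusted p = 1.39e-05). The groups lay far apart, and 89 fibroblast-like cells reached 20 CPM of Lrat, against 3 vascular SMC-like cells. Lpl averaged 479.5 ± 134.5 CPM and 28.5 ± 4.48 CPM in the same classes (log2 fold change 4.02 ± 0.42, edgeR adjusted p = 4.1e-05). Hoxa5 had 139.1 CPM, 88.3 CPM and 79.3 CPM in alveolar fibroblast-like cells, against 29.4 CPM, 13.7 CPM and 16.4 CPM in vascular SMC-like cells, a log2 difference of 2.38 ± 0.61 (SE). Its edgeR adjusted p was 0.0325, and the call was lost with male mouse 1 left out (0.275), male mouse 2 (0.143) or female mouse 1 (0.226).

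**Figure D5:**
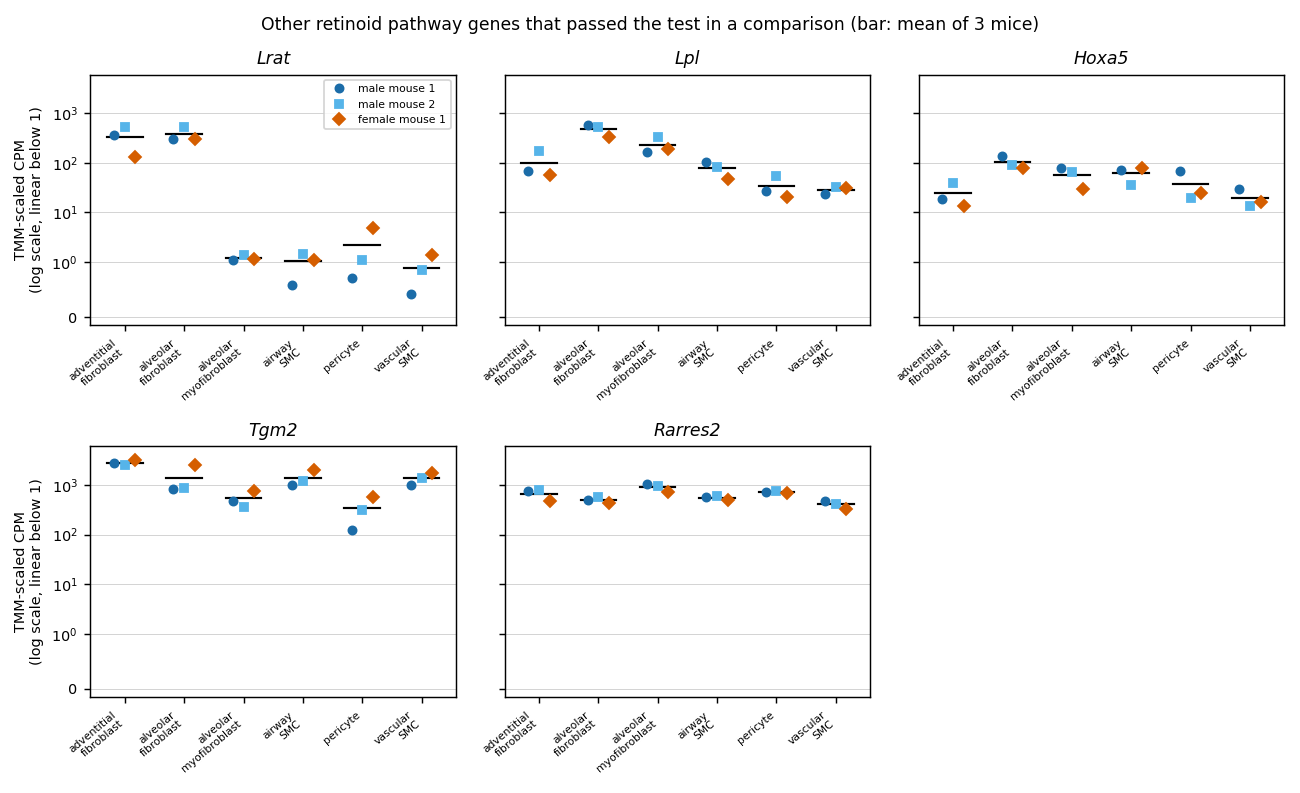
TMM-scaled CPM (log axis, linear below 1) of 5 other pathway genes that passed the test in a comparison, by cell class; points are mice and bars are means of 3 mice. Lrat averages 372.9 CPM in alveolar and 337.1 CPM in adventitial fibroblast-like cells and at most 2.19 CPM in each of the other 4 classes. Tgm2 was lower and Rarres2 higher in pericyte-like than in vascular SMC-like cells of all 3 mice.

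Alveolar myofibroblast-like cells lacked the Lrat level of the alveolar fibroblast-like cells. They had 1.07 CPM, 1.36 CPM and 1.14 CPM of Lrat, with a log2 fold change of -8.27 ± 0.81 (SE) and an edgeR adjusted p of 4.9e-05. Of the 39 pathway genes 2 were lower and 1 higher, or 7.69%, where 2.24% of all genes passed (0.851% higher, 1.39% lower), and the median was -0.38 against -0.09 over all genes. The other lower gene was Tgm2, a transglutaminase induced by retinoic acid (-1.26 ± 0.31, edgeR adjusted p = 0.0495), and the higher one was Rarres2, a retinoic acid responsive gene that encodes chemerin (0.85 ± 0.17, adjusted p = 0.0126). Tgm2 lost its call without male mouse 1 (adjusted p = 0.0728), male mouse 2 (0.267) or female mouse 1 (0.417), and Rarres2 lost it without them as well (0.393, 0.105 and 0.140 in edgeR). Tgm2 had 481.02 CPM, 364.8 CPM and 765 CPM in alveolar myofibroblast-like cells, against 833 CPM, 868 CPM and 2495 CPM in alveolar fibroblast-like cells. Rarres2 had 1038 CPM, 942 CPM and 725 CPM, against 497.5 CPM, 572.6 CPM and 426.2 CPM, and neither gene's groups overlapped. Among the 9 genes, mean log2(CPM + 1) differences between these classes were -2.68 ± 0.26 for Aldh1a1, -4.52 ± 1.63 for Adh1, -3.22 ± 2.64 for Rbp4 and -3.94 ± 1.39 for Stra6 (SD, n = 3), negative in 3 of 3 mice for each, given as a description. Adh7 was negative in 3 of 3 mice as well (-2.74 ± 2.68), and Aldh1a2, Aldh1a3 and Cyp26b1 were between 0.13 and 0.28. Rdh10 went both ways, at 1.99, -2.87 and 0.20 in the 3 mice.

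In the airway comparison 1 of the 39 pathway genes passed edgeR's test, or 2.56%, where 1.82% of all genes passed (0.936% higher, 0.888% lower). In the pericyte comparison 3 of 39 passed, or 7.69%, where 2.47% of all genes passed (1.35% higher, 1.12% lower). Among these 3, Tgm2 was lower at 123.8 CPM, 305.6 CPM and 581.04 CPM in pericyte-like cells, against 1000.3 CPM, 1354 CPM and 1766 CPM in vascular SMC-like cells (-2.18 ± 0.32, SE, edgeR adjusted p = 0.00246). Rarres2 was higher at 731 CPM, 756 CPM and 690.0 CPM, against 477.6 CPM, 417.02 CPM and 330.2 CPM in vascular SMC-like cells (0.85 ± 0.17, adjusted p = 0.0123). Both genes kept their groups apart without overlap. The Tgm2 call was lost without male mouse 1 (adjusted p = 0.0633) or male mouse 2 (0.0672), and Rarres2 lost its call without male mouse 1 (0.202), male mouse 2 (0.160) or female mouse 1 (0.149).

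The receptors were measured throughout. All 12 receptors and coregulators were tested and 0 of 12 passed in each of the 4 comparisons in edgeR. At an unadjusted p under 0.05 were 3 in the alveolar fibroblast, 2 in the myofibroblast, 1 in the airway and 3 in the pericyte comparison. Of all 16338 genes, 2254, 2063, 1768 and 2405 were under that value in the same comparisons. DESeq2 called 0, 2, 0 and 2 of the 12, and its shares over all genes are given in the last section. Rara averaged 47.1 to 81.2 CPM and Rarg 45.2 to 145.2 CPM over the 6 classes. Rarb, a receptor that retinoic acid itself induces, averaged 23.01 ± 20.4 CPM in alveolar myofibroblast-like cells, where 4 of 91 cells reached 20 CPM, against 0.442 ± 0.516 CPM in alveolar fibroblast-like cells (SD, n = 3; edgeR adjusted p = 0.125). Airway SMC-like cells had an unscaled 29.2 CPM, 55.2 CPM and 5.51 CPM of Rarb, and 10 of 96 cells reached 20 CPM, so Rarb was not particular to the myofibroblast-like cells. These receptors and the next gene were chosen after their values were seen. Dhrs3, a reductase that turns retinaldehyde back to retinol, averaged 193.97 ± 30.8 CPM in alveolar fibroblast-like and 60.99 ± 9.08 CPM in vascular SMC-like cells, and gave no call in edgeR. It was not particular to alveolar fibroblast-like cells, which had an unscaled 190.96 CPM over all their cells. Macrophage-like cells had 848.9 CPM, endothelial-like 183.3 CPM and adventitial fibroblast-like 139.97 CPM. Levels were lower in airway SMC-like cells at 36.96 CPM and in alveolar myofibroblast-like cells at 25.4 CPM.

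For each gene that reached 10 CPM in a class, the 3 genes of most similar pattern were looked up among 5181 genes by Pearson correlation of log2(CPM + 1) over 18 sums (6 classes in 3 mice, which share libraries and depth). Aldh1a1 was most like Efemp1, Mme and Srpx2 (r = 0.91 each), and Aldh1a2 like Slc11a1 (r = 0.79), Bcam (r = 0.77) and Efhd1 (r = 0.75), whose name also marks the vascular SMC-like cluster lowest in Aldh1a2. Adh1 was most like its overlapping antisense gene Gm16559 (r = 0.997), Cdh11 (r = 0.95) and Shisa2 (r = 0.94). Adh7 followed Apod (r = 0.92), Dner (r = 0.89) and Pid1 (r = 0.89), and Rbp4 followed Mmp2 (r = 0.91), D430041D05Rik (r = 0.89) and Bdh2 (r = 0.88). Stra6 followed Wnt2 (r = 0.93), Maf (r = 0.81) and Gyg (r = 0.80), a set that includes a leading gene of the alveolar fibroblast-like cluster. Rdh10 followed Nup88 (r = 0.82), Trim33 (r = 0.78) and Foxf1 (r = 0.78), and Aldh1a3 followed Gdpd5 (r = 0.66), Plxna3 (r = 0.65) and Mtx1 (r = 0.62). These correlations over 18 sums carry no test.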

How the data were processed

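The deposited table gives raw read counts per gene and cell. The authors sorted single lung cells into plates and made Smart-Seq2 libraries, per the labels' protocols, and used bcl2fastq, Bowtie, Bowtie2, Subread and featureCounts with GRCm38 (mm10), per the submitters' processing notes; versions, roles and strand setting are not given in the sources used here. The 9 genes, pathway lists and markers were chosen with earlier results of these data known. All 1376 cells passed the filter of 1000 genes and 20000 counts. Genes were split at random into 2 parts (seed 1); 1000 variable genes of the part without retinoid genes gave 30 components, 15 neighbours and Leiden clusters at resolution 1 (Python 3.11.15, scikit-learn 1.9.0, leidenalg 0.10.2). A cluster was named from markers detected in at least 50% of its cells (3 or more) with a score margin of 0.15; clusters with under 75% of the usual number of genes were left unnamed. Of 1061 cells named in clusterings on each part, 1017 had the same name.

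Cells are not replicates, so the counts of a class were added up within each mouse and tested with edgeR 4.0.16 (R 4.3.3) by the quasi-likelihood test with TMM scaling, filterByExpr, mouse as a block, since each mouse gave all classes, and Benjamini-Hochberg adjustment over 16338 genes (threshold 0.05); 39 of 63 pathway genes were tested, and the 9 retinoid genes entered the fit without a p being given, since they were chosen from values of these classes. DESeq2 1.42.0 was an alternative. Levels are TMM-scaled CPM computed here; "unscaled" CPM leaves TMM out. Summed counts, without molecular identifiers, cover counting error only in limits for a count of 0 (3 counts). Gene coordinates are from GENCODE M21. In each comparison pathway genes past the threshold are named, at most 8 by smallest adjusted p; 1 of them is not reported here. On simulated data the test missed most of the changes put in, so a gene that did not pass is not shown to be unchanged, and false calls ran above the threshold in the pericyte comparison.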

Additional observations from a re-analysis of the deposited data

Results flagged for a closer look

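In the pericyte-like against vascular SMC-like comparison, the female mouse lay on the other side of 0 from both male mice for 2 genes. The log2(CPM + 1) difference of Adh7 was -0.053 in the female mouse and 0.52 and 3.57 in male mouse 1 and male mouse 2. Without cells holding markers of another type, unscaled Adh7 in male mouse 2 was 0 CPM in pericyte-like cells, against 0.328 CPM in vascular SMC-like cells, so the female mouse was no longer opposite to both males. The log2(CPM + 1) difference of Rbp4 was 0.121 in the female mouse and -0.66 and -1.10 in the males. These differences between the sexes were not tested, and sex cannot be told apart from mouse and plate.

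Signals also appeared in cells that entered no comparison. Aldh1a2 was at 898 CPM, unscaled, in the 16 unnamed cells of male mouse 2, above every mouse of the 6 compared classes, and 6 of these cells reached 20 CPM. The 96 unnamed cells of male mouse 1 had 113.7 CPM, below the 185.1 CPM of its vascular SMC-like cells. The unnamed cluster scored highest for vascular SMC markers (0.826) and was left unnamed for its low number of genes, with a median of 2741 per cell. Cyp26b1 was at an unscaled 107.3 CPM in the 66 endothelial-like cells of female mouse 1, also above every mouse of those classes.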

How the results depend on the processing

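The share of genes called moved most with the tool and with the mice. DESeq2 called 9.96% of the 16338 genes in the alveolar fibroblast comparison, 8.10% in the myofibroblast, 5.88% in the airway and 9.55% in the pericyte comparison, where edgeR called 5.43%, 2.24%, 1.82% and 2.47%. Leaving out 1 mouse in turn, with fewer samples, gave 1.73% to 2.47% (alveolar fibroblast), 0.502% to 1.03% (myofibroblast), 0.361% to 0.741% (airway) and 0.135% to 1.1997% (pericyte), and Leiden resolution 2 gave 3.93% in the pericyte comparison. Of the 39 pathway genes, edgeR called 3, 3, 1 and 3. DESeq2 called 6 in the myofibroblast, 5 in the airway and 6 in the pericyte comparison. The airway count was 2 without cells holding markers of another type and 2 without the Osr2 cluster, both chosen after seeing the data. Leaving out 1 mouse gave 1 in the myofibroblast comparison in every case, 0 to 1 in the airway and 0 to 1 in the pericyte comparison.

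The mouse was a block because its classes come from the same animal. With no replicate block the airway comparison called 1.10% of genes and the pericyte comparison 1.49%, the pathway count was 1 in the myofibroblast and 1 in the pericyte comparison, Hoxa5 had an edgeR adjusted p of 0.0657 and Adh7 turned to -0.20 in the airway comparison.

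Other fold changes turned as well. In the airway comparison Aldh1a3 was -0.99 under another gene split and -0.35 to 2.19 with 1 mouse left out in turn. Adh1 was 2.28 under that split, 2.30 when clustered on all variable genes and 1.86 without the Osr2 cluster. With 1 mouse left out Adh7 ran from -0.16 to 0.63 and Stra6 from -1.26 to 1.35. In the pericyte comparison Rbp4 was 0.38 under another split, 0.44 on all variable genes, 0.43 at resolution 2 and 0.24 without the Osr2 cluster. Aldh1a3 was 0.13 on all variable genes and 0.38 without cells holding markers of another type, and Cyp26b1 was 0.14 in DESeq2. Without those cells Aldh1a1 was -0.047 and Adh1 -0.36. With 1 mouse left out Aldh1a1 ran from -0.090 to 0.97, Aldh1a2 from -2.98 to 0.22, Aldh1a3 from -2.86 to 0.36 and Adh1 from -1.68 to 1.61. The cause was not tested for any of these. Of the fold changes under alternatives 85.7% kept direction and side of the threshold. Airway cells at Leiden resolution 2, where 15 of 96 kept the name and 81 fell in an unnamed cluster, and pericyte-like cells under the stricter cell filter were not run. Depth limits genes carried by few cells, above all Stra6, Aldh1a3 and Cyp26b1.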
